A study of Homo sapiens with 6 samples.

Results

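The levels of 42 genes of mitotic entry, the spindle checkpoint and the kinetochore were followed in HEK293, a rapidly dividing line derived from human embryonic kidney. They were chosen by symbol, a rule that uses no measured value, although the list was drawn up with earlier results of these data known. All 42 were present among the 26485 gene names of the count table, and all 42 were among the 14877 genes that passed the filter on low counts and were tested. Many of the proteins these genes encode are made mostly in G2 and mitosis. CDK1 bound to A- and B-type cyclins starts mitosis, the spindle assembly checkpoint holds anaphase back until every kinetochore is attached to microtubules, and the anaphase-promoting complex then releases the sister chromatids. Many of the genes are transcribed together late in the cell cycle by B-MYB, FOXM1 and the MuvB complex.

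RNA-seq was performed on 6 HEK293 cultures. In 3 of them the long noncoding RNA *HSALNG0134318* was knocked down by transient transfection of a Smart Silencer, which combines small interfering RNAs with antisense oligonucleotides, with Lipofectamine RNAiMAX. The other 3 were controls, named NC in the sample description and WT in the genotype, and the sources used here do not say what they were transfected with. Both groups shared the same line, for which the labels name no further allele and which carries adenovirus E1 genes, whose E1A product inactivates the pocket proteins that restrain the cell cycle. The cultures were labelled as biological replicates of one line, so the p-values measure the spread between these cultures only. Each culture held between 13900965 and 16869948 counts. *HSALNG0134318* itself was not listed in the table, so its level gave no check of the labels. Embryonic kidney and epithelial markers summed to 681 to 812 CPM (counts scaled to a common library size) in the controls and 720 to 885 CPM in the knockdown group. This sum came mostly from the epithelial gene *KRT8* (5470 to 8247 counts), while *PAX8* had 2 to 6 counts in each culture. Blood cell markers stayed between 4.82 and 7.32 CPM over the 6 cultures, mostly from *CD68*, with *CD3E* and *HBB* at 0. Endothelial markers summed to 5.94 to 6.58 CPM in the controls and 2.70 to 4.68 CPM in the knockdown group, mostly from *KDR*, while *PECAM1* and *CDH5* had 0 to 5 counts in each culture. Fibroblast markers summed to 40.1 to 54.4 CPM in the controls and 44.2 to 65.5 CPM in the knockdown group, and *COL1A2* and *COL3A1* were highest in knockdown replicate 3 with 108 and 69 counts. The part of these markers in the results was not tested.

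Of the 42 genes, 6 were lower and 1 was higher in the knockdown group at a Benjamini-Hochberg adjusted p under 0.05 (edgeR quasi-likelihood F test over all 14877 genes). The 6 lower genes were *CDK1*, *WEE1*, *BUB3*, *PTTG1*, *SPC25* and *TPX2*, and the higher gene was *INCENP*. The 7 calls made up 16.7% of the 42 genes, while 10% of all tested genes were called in either direction. The lower calls were 14.3% of the 42 genes against 4.64% of all genes, and the higher call was 2.38% against 5.4%. Log2 fold changes were negative in 32 genes and positive in 10, and negative in 7837 of the 14877 tested genes. Without control replicate 3, they were negative in 26 of the 42 genes and positive in 16. The median log2 fold change of the 42 genes was -0.10, and that of all tested genes was -0.02. Regardless of sign, the median size was 0.14 for the 42 genes and 0.20 for all tested genes. The median standard error (SE) was 0.108 for the 42 genes and 0.139 for all, so equal changes were more easily called among the 42. The changes were small, with log2 fold changes from -0.47 for *PTTG1* to 0.42 for *INCENP*. Their 95% intervals stayed between -0.75 and 0.68, so no interval reached a doubling or a halving. The count of lower calls depended on single cultures. It was 3 when control replicate 1 was left out, 1 when knockdown replicate 1 or 2 was, and 0 when knockdown replicate 3 was, where 6 genes were lower at an unadjusted p under 0.05 (edgeR). Calls over all genes fell too, with 1.95% lower without control replicate 1 and 1.67%, 1.63% and 1.54% without knockdown replicates 1, 2 and 3. DESeq2 and limma-voom, with all 6 cultures, called the same 7 genes. In bulk RNA, fewer cells in mitosis and less of each transcript per cell cannot be told apart.

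**Figure D1:**
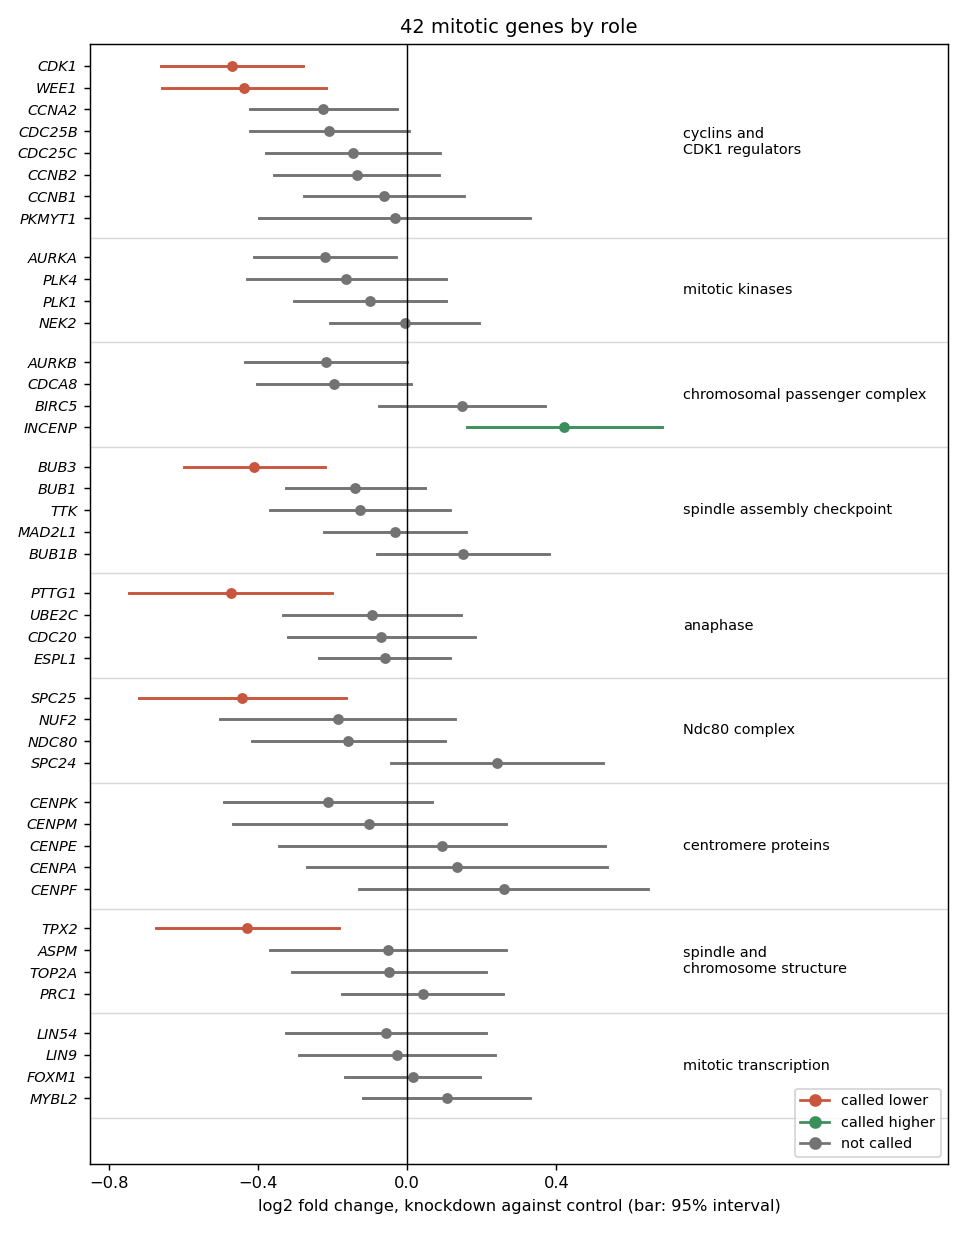
Log2 fold changes of the 42 genes (knockdown against control, 3 cultures each, horizontal axis), grouped by role, with bars for 95% intervals and colours for called genes. The 6 genes called lower lie between -0.47 and -0.41, *INCENP* lies at 0.42, and the remaining 35 genes lie between -0.22 and 0.26.

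Many promoters of this kind carry the cell cycle genes homology region, TTTGAA, the element to which LIN54 attaches the MuvB complex. Promoter sequences of RefSeq (GRCh38.p14, 250 bases before to 50 after the start) were matched to 32 of the 42 genes. TTTGAA was found on either strand in 19 of the 32 promoters (59.4%), in 15.2% of the 35116 promoters of the table and in 9.64% of the 10926 promoters of tested genes. Within 50 bases of the start it was found in 14 of 32 (43.8%) and in 4.62% of all promoters. CCAAT, the box bound by NF-Y, was found in 22 of 32 (68.8%), in 34.6% of all promoters and in 36.3% of those of tested genes. TTTAAA, a variant of the first element, was found in 9 (28.1%, against 12.2% of all and 7.81% of tested genes' promoters). The E2F site TTTCCCGC was found only in *CENPA* among the 32 (3.12%, against 1.63% and 2.58%), and TTTGGCGC in none of them (against 0.652% and 1.13%). All 5 motifs were searched on both strands, and TTTGAA and TTTAAA, which differ in 1 letter, were counted separately. The following windows show the element in genes that were called and in genes that were not, 5′ to 3′ on the coding strand of each gene, with the element in capitals. TTCAAA in capitals is TTTGAA on the opposite strand. The called genes come first.

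CDK1: gagtataataaaTTTGAActgtgccaatgc
SPC25: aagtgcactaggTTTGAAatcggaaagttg
INCENP: tgagccttcagtTTTGAAaatcatagtttt
CCNB2: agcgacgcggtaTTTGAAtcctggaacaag
PLK1: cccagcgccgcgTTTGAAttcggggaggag
BUB1B: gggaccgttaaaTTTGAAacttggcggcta
CDC20: cgacggttggatTTTGAAggagccaatagg
NDC80: ccggcggagaatTTCAAAttcgaacggctt
CENPA: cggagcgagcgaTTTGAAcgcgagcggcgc

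These windows lie at chr10:60778158-60778187 (*CDK1*, plus strand), chr2:168890416-168890445 (*SPC25*, minus strand), chr11:62123989-62124018 (*INCENP*, plus strand), chr15:59105105-59105134 (*CCNB2*, plus strand) and chr16:23678848-23678877 (*PLK1*, plus strand). The remaining windows are chr15:40161034-40161063 (*BUB1B*), chr1:43358904-43358933 (*CDC20*), chr18:2571542-2571571 (*NDC80*) and chr2:26786026-26786055 (*CENPA*), all on the plus strand. The element shown began 3 bases before the start in *SPC25* and 10 bases before it in *INCENP*, but 161 bases before it in *CDK1*. *SPC25* held a further copy 247 bases before its start, and *CDC20* one 178 bases before its start on the opposite strand, neither of which is shown. Among the called genes with a promoter in the table, the element was thus found in *CDK1* and *SPC25*, which were lower, and in *INCENP*, which was higher. *PTTG1*, also lower, did not hold TTTGAA in this window. The variant TTTAAA was found in *PTTG1* and *CDK1* and not in *SPC25* or *INCENP*. Of the 28 matched genes that were not called, 16 held TTTGAA and 7 held TTTAAA. *WEE1*, *BUB3* and *TPX2* had no entry in the table.

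Among the cyclins and CDK1 regulators, 2 of 8 genes were lower and all 8 had negative log2 fold changes. *CDK1* (chr10:60778331-60794852, GRCh38, plus strand) encodes the kinase that drives entry into mitosis. It had 3438, 3416 and 3476 normalized counts in control replicates 1, 2 and 3 and 2312, 2690.4 and 2457 in knockdown replicates 1, 2 and 3. Every knockdown culture was below every control culture, and the controls differed from each other by far less than from the knockdown cultures. The control mean was 3443 ± 29.9 and the knockdown mean 2487 ± 191 (SD, n = 3). *CDK1* thus changed by -0.47 on the log2 scale (SE 0.087, edgeR adjusted p = 0.0071). Over 14 alternative settings it was called in 13, and its adjusted p was 0.057 without knockdown replicate 3.

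*WEE1* (chr11:9573670-9593457, plus strand) encodes the kinase that holds CDK1 inactive until mitotic entry. It had 1953, 1988 and 1673 normalized counts in the controls and 1265, 1431 and 1451 in the knockdown cultures. The groups did not overlap, and control replicate 3 was the control closest to the knockdown group. *WEE1* had a log2 fold change of -0.44 (SE 0.10, edgeR adjusted p = 0.0194). The adjusted p rose above 0.05 in 4 of 14 alternatives, without control replicate 1 and without each knockdown replicate, and reached at most 0.096. The kinase and its inhibitor kinase thus both had lower RNA in the same cultures.

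The other CDK1 regulators were not called. *CCNA2*, cyclin A2, had 2444, 2204 and 2581 normalized counts in the controls and 1986, 2122 and 2077 in the knockdown cultures, again without overlap. Its log2 fold change was -0.22 (SE 0.0896, edgeR adjusted p = 0.135), and it was called under a correction for GC content and length and without control replicate 2. *CDC25B* and *CDC25C*, the phosphatases that activate CDK1, had log2 fold changes of -0.21 and -0.15, and both groups overlapped. The B-type cyclins *CCNB2* (-0.14) and *CCNB1* (-0.06) overlapped between groups too. *PKMYT1*, a second inhibitory kinase of CDK1, had a log2 fold change of -0.03 with an interval from -0.40 to 0.33, the widest of these 8 genes.

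**Figure D2:**
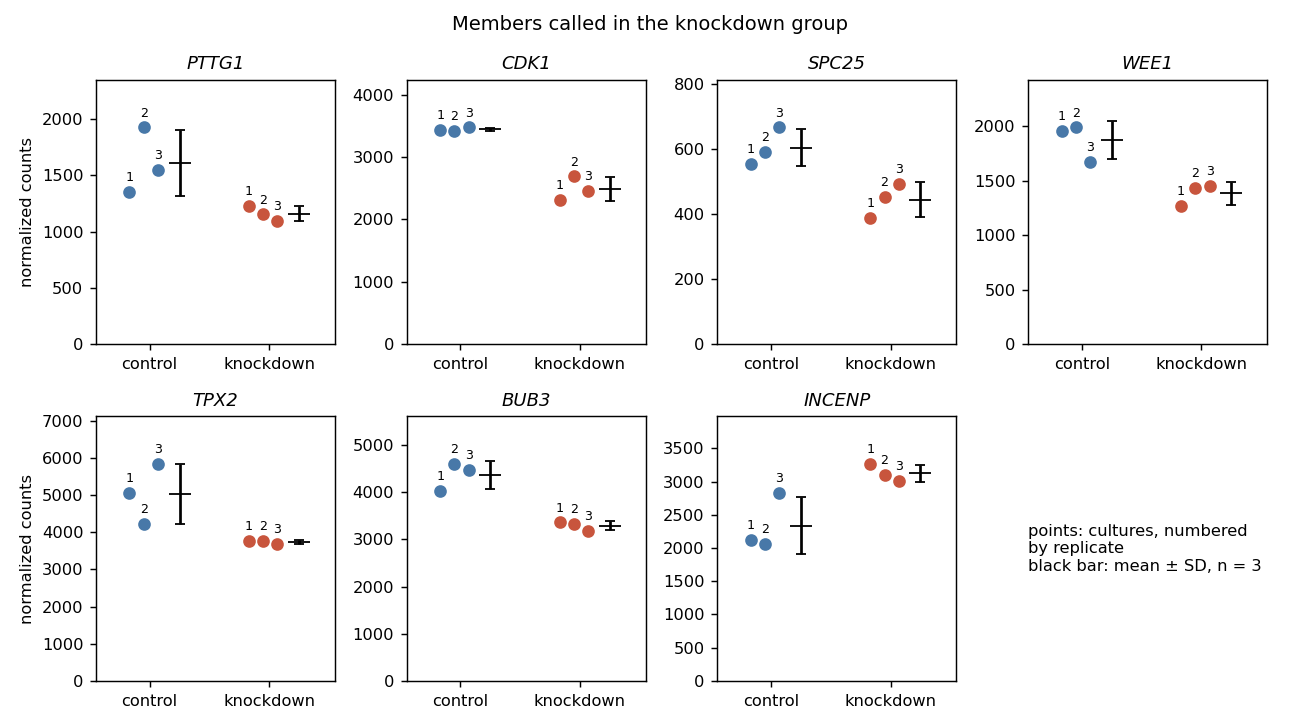
Normalized counts (vertical axes, starting at 0) of the 7 called genes in each culture, numbered by replicate, with the mean and SD of 3 cultures in black. In each panel the 3 knockdown cultures lie outside the range of the 3 controls, below it for 6 genes and above it for *INCENP*.

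None of the 4 mitotic kinases was called by edgeR, DESeq2 or limma-voom, and 1 of them, *AURKA*, had an unadjusted p under 0.05, while all 4 had negative log2 fold changes. *AURKA*, the kinase of centrosome maturation and spindle assembly, had 1965, 1936 and 2158 normalized counts in the controls and 1819.9, 1704 and 1674 in the knockdown cultures. The groups did not overlap, but the lowest control and the highest knockdown culture were close together. With a log2 fold change of -0.22 (SE 0.0872, edgeR adjusted p = 0.132), *AURKA* was called in the same 2 alternatives as *CCNA2*. *PLK4*, which duplicates centrioles, had -0.16, and *PLK1*, which acts from centrosome to cytokinesis, had -0.10. *NEK2*, a centrosomal kinase, was at 898 ± 26.6 normalized counts in the controls and 894 ± 2.79 after knockdown, and the interval of its log2 fold change ran from -0.21 to 0.19.

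TPX2 is the microtubule protein that activates Aurora A on the spindle. Its gene *TPX2* (chr20:31739271-31801805, plus strand) had 5057, 4223 and 5835 normalized counts in the controls and 3775, 3774 and 3679 in the knockdown cultures. The 3 knockdown cultures were nearly equal, while the controls were spread over a wide range above them. *TPX2* changed by -0.43 on the log2 scale (SE 0.112, edgeR adjusted p = 0.0339). The call was lost without control replicate 1, without control replicate 3 and without each knockdown replicate (adjusted p up to 0.141). The other genes of the spindle and of chromosome structure were not called and overlapped between groups. These were *ASPM*, which focuses spindle poles (-0.05), *TOP2A*, the topoisomerase that untangles sister DNA (-0.05), and *PRC1*, which bundles the central spindle (0.04).

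The chromosomal passenger complex, which corrects wrong attachments of chromosomes, has 4 subunits, of which 1 was higher and 3 were not called. *INCENP* (chr11:62123998-62153169, plus strand), the scaffold that binds Aurora B, had 2121, 2059 and 2825 normalized counts in the controls and 3263, 3101 and 3013 in the knockdown cultures. All knockdown cultures were above all controls, and control replicate 3 stood much closer to them than the other two. *INCENP* changed by 0.42 on the log2 scale (SE 0.119, edgeR adjusted p = 0.046). It was called in 9 of 14 alternatives, and the log2 fold change was 0.59 without control replicate 3. The call was lost without control replicate 1, without each knockdown replicate (adjusted p up to 0.158) and under the correction for GC content and length (0.101).

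The other 3 subunits were not called. *AURKB*, the kinase of the complex, had -0.22 on the log2 scale (edgeR adjusted p = 0.187). *CDCA8*, which encodes borealin, had 1689.7, 1674 and 1750.1 normalized counts in the controls and 1659, 1404 and 1398 in the knockdown cultures. Knockdown replicate 1 lay just under the controls and the other two well under them. The log2 fold change of *CDCA8* was -0.20 (SE 0.0948, edgeR adjusted p = 0.211), and it was called only under the correction for GC content and length (0.047). *BIRC5*, survivin, had 0.15 with overlapping groups. Whether *INCENP* differed in its change from its partners was not tested.

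In the spindle assembly checkpoint, 1 of 5 genes was lower. *BUB3* (chr10:123154402-123170467, plus strand) encodes the protein that brings BUB1 and BUBR1 to kinetochores. It had 4036, 4596 and 4478 normalized counts in the controls and 3361, 3325 and 3183 in the knockdown cultures, with a clear gap between the groups. *BUB3* changed by -0.41 on the log2 scale (SE 0.0864, edgeR adjusted p = 0.0132). The call held without each of the controls and was lost without each knockdown replicate (adjusted p up to 0.0975). Its binding partners were not called. *BUB1* had -0.14, with all knockdown cultures below the controls, and *BUB1B*, which encodes BUBR1, had 0.15. *TTK*, the MPS1 kinase at the top of the pathway, had -0.13, and *MAD2L1*, which encodes the checkpoint effector MAD2, had -0.03 with an interval from -0.22 to 0.16.

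Of the 4 anaphase genes, *PTTG1* was lower and the other 3 were not called. *PTTG1* (chr5:160421855-160428739, plus strand) encodes securin, which blocks separase until anaphase. It had 1354, 1926 and 1547 normalized counts in the controls and 1227, 1153 and 1097 in the knockdown cultures. The groups did not overlap, but control replicate 2 was far above the other controls. Its log2 fold change was -0.47 (SE 0.124, edgeR adjusted p = 0.0339), or -0.32 without control replicate 2, where it was still called. The call was lost without each knockdown replicate (adjusted p up to 0.148). The near-identical copies *PTTG2* and *PTTG3P* had 0 to 4 counts in each culture, and how reads shared with them were assigned is not given in the sources used here. *ESPL1*, the separase that securin blocks, had a log2 fold change of -0.06, and *CDC20* and *UBE2C*, the activator and the ubiquitin-conjugating enzyme of the anaphase-promoting complex, had -0.07 and -0.09.

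The Ndc80 complex, which couples kinetochores to microtubules, is built from 4 subunits of which 1 was lower. *SPC25* (chr2:168834132-168913371, minus strand), on the inner end of the complex, had 555, 592 and 668 normalized counts in the controls and 388, 454 and 494 in the knockdown cultures. The groups did not overlap, and the closest cultures were control replicate 1 and knockdown replicate 3. For *SPC25* the log2 fold change was -0.44 (SE 0.127, edgeR adjusted p = 0.0486), just under the threshold. It was called in 6 of 14 alternatives, not when control replicate 1, control replicate 3 or any knockdown replicate was left out (adjusted p up to 0.175), and its adjusted p was 0.0613 with the replicate number as a block, 0.0530 with library sizes alone and 0.0505 with at least 10 counts in every culture. *SPC24*, its direct partner, had a log2 fold change of 0.24 (SE 0.129) and was not called. Exonic overlap with another listed gene was found for genes including *BUB1B*, *CENPA*, *CCNA2*, *CDC25C*, *FOXM1*, *PKMYT1*, *PLK1* and *PRC1*, and for none of the 7 called genes, and the strand setting of the counts is not given in the sources used here. *NUF2* and *NDC80*, on the outer end, had -0.19 and -0.16 with overlapping groups.

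None of the 5 centromere proteins was called by edgeR, DESeq2 or limma-voom, none had an unadjusted p under 0.05, and none was free of overlap between the groups. *CENPF*, a large kinetochore protein of G2 and mitosis, had 10007, 6496 and 11505 normalized counts in the controls and 10365, 11755 and 11377 in the knockdown cultures. Control replicate 2 was far below the other 5 cultures. The log2 fold change of *CENPF* was 0.26 (SE 0.174, edgeR adjusted p = 0.378), and it was 0.05 without control replicate 2. *CENPA*, the histone variant that marks the centromere, had 0.13 with an interval from -0.27 to 0.53, and *CENPE*, the kinesin that moves chromosomes to the metaphase plate, had 0.09 with one from -0.34 to 0.53. *CENPK* and *CENPM*, of the constitutive centromere network, had -0.21 and -0.10. The median SE of these 5 genes was 0.174, against 0.108 for all 42, so changes of their size were less detectable.

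The 4 transcription regulators of the programme had a median log2 fold change of -0.01 and a range from -0.06 to 0.11. *MYBL2*, which encodes B-MYB, had 3839, 4844 and 4799.6 normalized counts in the controls and 4946, 4731 and 4826 in the knockdown cultures. Control replicate 1 was below the other 5 cultures, which lay close together. The log2 fold change of *MYBL2* was 0.11 (SE 0.102, edgeR adjusted p = 0.549). *FOXM1* had 0.01 with an interval from -0.17 to 0.20, and the MuvB subunits *LIN9* and *LIN54* had -0.03 and -0.06. None of the 4 was called by edgeR or in any of the 14 alternatives, and none had an unadjusted p under 0.05.

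Of all 42 genes, 34 had a log2 fold change under 0.25 in size, and the 95% intervals of 30 lay within 0.5 of 0. Among the 35 genes that were not called, intervals ran from -0.50 to 0.65 at the widest, and 33 of them contained 0. Groups without overlap were found in 10 genes that were lower and 1 that was higher, 26.2% of the 42 genes, and in 32.2% of all tested genes. The share without overlap was thus below that of all genes, although the share called was above it. At an unadjusted p under 0.05 (edgeR), 8 of the 42 genes were lower and 1 was higher, the 2 further genes being *CCNA2* and *AURKA*. None of the 42 genes outside those called or just named had such a p. Of all 14877 tested genes, 2050 were lower and 1946 were higher at that threshold.

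The genes were abundant transcripts. Per length, 41 of the 42 were above the median of the tested genes in the controls (26.4 TPM, a scale of counts per kilobase of transcript that sums to the same total in each culture), and their own median was 135 TPM. *TOP2A* was highest at 624 TPM and *LIN54* lowest at 18.5 TPM. In the controls, *TOP2A* was followed by *PRC1* at 469, *PLK1* at 434, *PTTG1* at 430.4 and *CDK1* at 351 TPM. The called genes were found from *SPC25* at 86.8 TPM up to *PTTG1*. The lowest count of any of the 42 genes in any culture was 194, for *CENPA*.

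The spread among controls was larger than among knockdown cultures. The median coefficient of variation of the 42 genes was 11.9% in the controls and 5.43% in the knockdown group, and that of all tested genes was 13.3% and 7.82%. Together the 42 genes took from 0.741% of counts in control replicate 2 to 0.863% in control replicate 3. Control replicate 3 was above the mean of the 6 cultures in 37 of the 42 genes and was the highest of the 6 in 22. Its median deviation from that mean was 0.14 on the log2 scale, and those of the knockdown cultures lay between -0.05 and -0.02. Without control replicate 3, the median log2 fold change of the 42 genes was -0.05 and 4 genes were lower (*CDK1*, *WEE1*, *BUB3* and *PTTG1*), while the share of all genes called lower was 6.57%, above the 4.64% with all cultures. Without control replicate 2 the median was -0.14 and 8 genes were lower, with 8.21% of all genes called lower, and *INCENP* was higher both times.

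**Figure D3:**
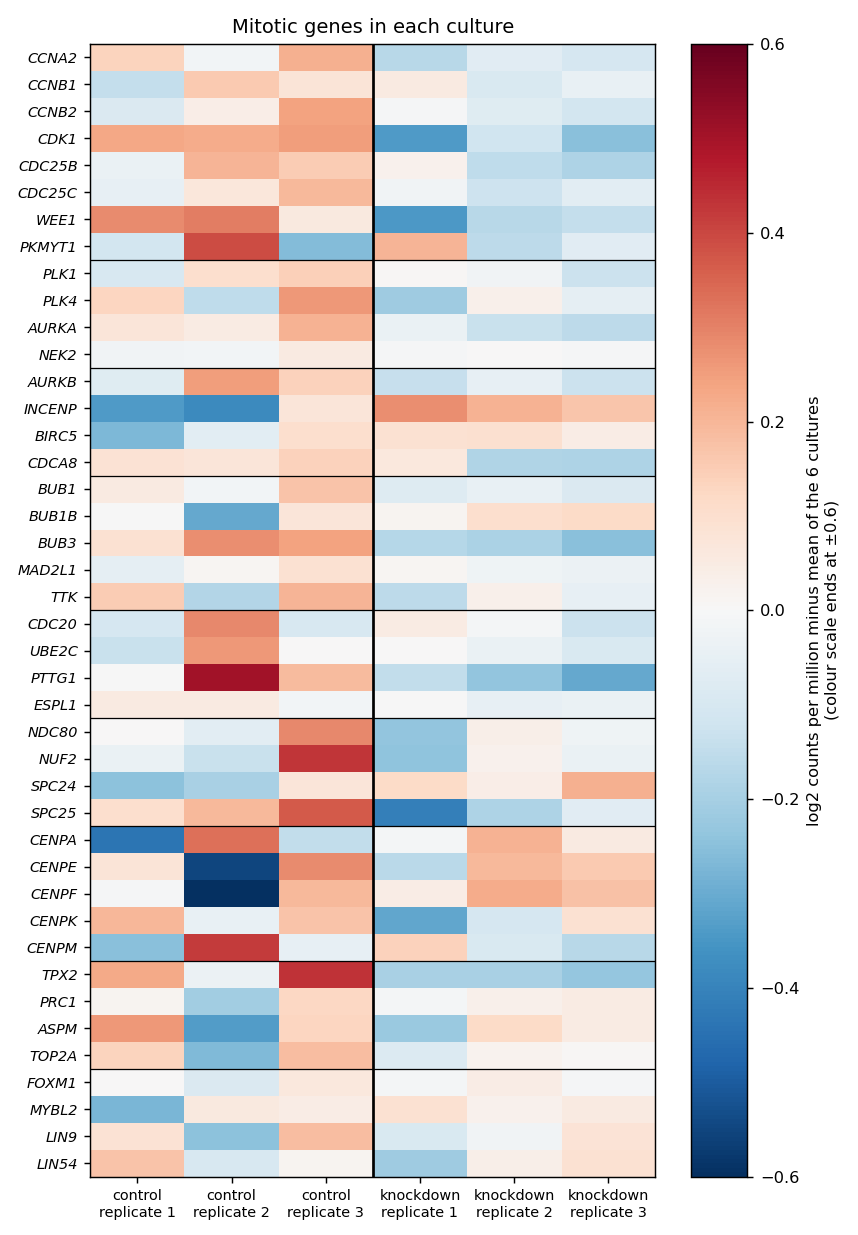
Log2 CPM of each of the 42 genes (rows, grouped by role) in each culture (columns) relative to the mean of the 6 cultures. Control replicate 3 is above that mean in 37 genes, and *CENPE* and *CENPF* stand out as low and *PTTG1* and *CENPM* as high in control replicate 2.

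The deviations of single cultures moved with transcript length. Lengths of the 42 genes (GENCODE 44 canonical transcript) ran from 715 bases for *PTTG1* to 10863 for *ASPM*, with a median of 2621. The deviation of a culture from its group mean had a Pearson correlation across these 42 genes with log2 length of 0.71 in control replicate 1, -0.67 in control replicate 2 and 0.37 in control replicate 3. In knockdown replicates 1, 2 and 3 it was -0.35, 0.28 and 0.30. Over the 14470 tested genes with a known length the same correlations were 0.32, -0.31 and 0.08 in the controls and -0.16, 0.09 and 0.09 in the knockdown group. These are correlations across genes of one library, which share its preparation and depth, and the 3 values of a group depend on each other. Control replicate 2 thus held less of the long transcripts *CENPF*, *CENPE*, *ASPM* and *TOP2A* and more of the short ones *UBE2C*, *CDC20*, *CENPM* and *PTTG1* than its group mean. Those long transcripts had 35.1% to 40.8% GC and those short ones 45.7% to 59.7%, and the part of GC content was not tested. Other genes went the other way. The long *BUB3* (0.08) and *ESPL1* (0.02) were above the group mean on the log2 scale. The short *SPC25* (-0.03), *CCNB2* (-0.02) and *CENPK* (-0.15) were below it. Between groups, the correlation of the log2 fold change with length was 0.29 over the 42 genes and 0.04 over all genes. After each library was corrected for its trend with GC content and length, 9 of the 42 genes were lower and 0 were higher by edgeR (1 at an unadjusted p under 0.05), with 10.8% of all genes called lower and 8.55% higher. *CCNA2*, *AURKA* and *CDCA8* were added and *INCENP* was lost.

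A further 118 genes of mitosis outside these 42 were read from the same fit. Of them, 8 were lower (6.78%, against 4.64% of all tested genes) and 7 higher (5.93%, against 5.4%). The median log2 fold change of the 118 was -0.05. Of 38 other kinetochore and centromere genes, 1 was lower (2.63%) and 3 were higher (7.89%). *ZW10*, of the complex that brings dynein to kinetochores, had 270.4, 272 and 364 normalized counts in the controls and 809.7, 787 and 711 in the knockdown cultures, a log2 fold change of 1.35 (SE 0.138, edgeR adjusted p = 0.00024). This was larger than the change of any of the 42 genes. *MAD1L1*, the kinetochore receptor of MAD2, rose by 0.81 and *SKA2* by 0.58 on the log2 scale, while *CENPQ* fell by 0.73. Of 17 genes of the anaphase-promoting complex, *ANAPC13* was higher (0.54), which is 5.88% of the list against 5.4% of all tested genes. With all 6 cultures 0 of the 17 were lower by edgeR, DESeq2 or limma-voom (3 at an unadjusted p under 0.05). Without control replicate 2, edgeR called 2 of the 17 lower and 2 higher. With all 6 cultures none of 8 condensin genes was called by edgeR, DESeq2 or limma-voom, and 2 of them, both with a positive log2 fold change, had an unadjusted p under 0.05. Of the 8, 1 was higher by edgeR under the correction for GC content and length, and 1 was lower and 1 higher without control replicate 2.

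Among 13 partners of the DREAM and MuvB complexes, *RBL2*, which encodes the repressor p130, was higher (0.75), and *E2F5* (-0.55) and *DYRK1A* (-0.35), whose kinase assembles DREAM, were lower. The lower calls were 15.4% of the 13 and the higher call 7.69%, against 4.64% and 5.4% of all tested genes. Of 42 other G2/M transcripts, 5 were lower (11.9%) and 2 higher (4.76%), against 4.64% and 5.4% of all tested genes. The largest changes were in the paired inhibitors of PP2A that keep CDK1 substrates phosphorylated. *ARPP19* had 4638, 3896 and 4559 normalized counts in the controls and 1657, 2118 and 2087 in the knockdown cultures, a log2 fold change of -1.16 (SE 0.114, edgeR adjusted p = 0.00021). *ENSA* had 1372, 1279 and 1684 normalized counts in the controls and 2899.5, 2914 and 2927 in the knockdown cultures, a log2 fold change of 1.01 (SE 0.107, edgeR adjusted p = 0.00028). These 2 close relatives moved in opposite directions. *ANLN*, anillin of the cleavage furrow, was lower (-0.80), *BTRC* was lower (-0.42) and *TACC3* of spindle microtubules was higher (0.39). *ZW10*, *CENPQ*, *RBL2*, *ARPP19*, *ENSA* and *ANLN* were called in all 14 alternatives. *MAD1L1* was lost without control replicate 1 only, and *SKA2* without knockdown replicates 2 or 3. *ANAPC13*, *E2F5*, *DYRK1A*, *TACC3* and *BTRC* were lost without control replicate 1 and without knockdown replicates 2 or 3, and the first 4 of them also without knockdown replicate 1. *DYRK1A* was lost with the replicate number as a block too.

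Genes of the G1/S transition give the other end of the cell cycle. Of 40 of them, 7 were lower (17.5%, against 14.3% of the 42 mitotic genes and 4.64% of all tested genes). A further 2 were higher (5%, against 2.38% and 5.4%). The groups did not overlap in 52.5% of the 40 genes, against 32.2% of all tested genes. The median log2 fold change of the 40 genes was -0.10, the same as that of the 42 mitotic genes to this precision. The 5 with the smallest p were all lower, namely the cyclins *CCND1* (-0.61) and *CCNE2* (-0.68), the transcription factor *E2F3* (-0.55), *GINS1* of the replicative helicase (-0.46) and *PCNA*, the sliding clamp (-0.35). With the replicate number as a block, 4 of the 40 were lower and 0 were higher by edgeR (5 higher at an unadjusted p under 0.05). *CCND1* and *CCNE2* were called in all 14 alternatives. *E2F3* was lost without knockdown replicate 1, *GINS1* without knockdown replicates 2 or 3, and *PCNA* with the block, without control replicate 1 and without each knockdown replicate. Of 14 inhibitors of the cell cycle, *CDKN1A*, which encodes p21, was called with all 6 cultures, at -1.04 on the log2 scale (SE 0.146, edgeR adjusted p = 0.0015), and it was lower in all 14 alternatives. In that edgeR fit the 1 lower call was 7.14% of the 14, against 4.64% of all tested genes. At an unadjusted p under 0.05, 4 of the 14 were lower, as were 2050 of the 14877 tested genes. The DESeq2 Wald test called 2 of the 14 lower, as did edgeR without control replicate 3. Of all tested genes, those fits called 5.75% and 6.57% lower. Without control replicate 2, 1 was lower and 2 were higher, and under the correction for GC content and length 1 was lower and 1 higher.

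**Figure D4:**
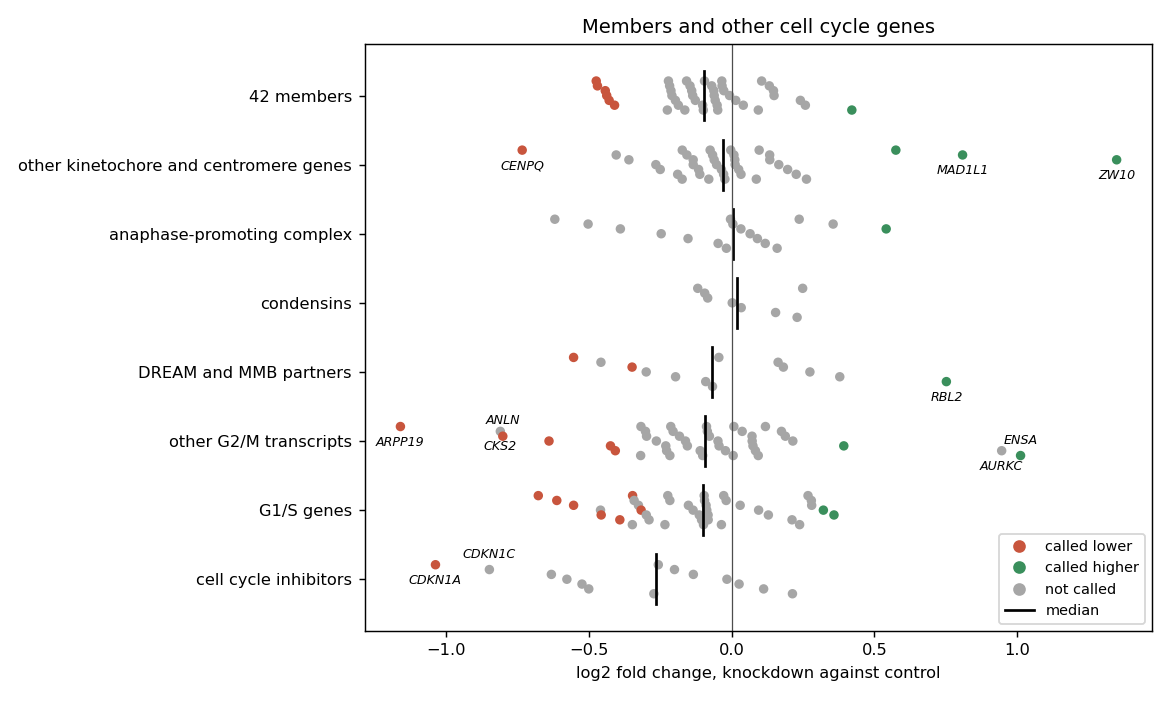
Log2 fold changes (horizontal axis) of the 42 genes and of other cell cycle genes by list, with called genes in colour, medians as black lines, and genes beyond 0.7 in size named. The 42 genes lie within -0.47 and 0.42, while *ZW10* (1.35), *ARPP19* (-1.16) and *CDKN1A* (-1.04) lie outside that range.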

How the data were processed

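RNA-seq was performed on 6 HEK293 cultures, 3 with knockdown of *HSALNG0134318* and 3 controls, grouped and numbered by their sample titles. The authors deposited read counts per gene as whole numbers, without normalization. The submitters' processing notes name FastQC 0.11.9, Trim Galore 0.6.6, STAR 2.7.9a, featureCounts 2.0.1 and the hg38 build. The paper's methods give other STAR and featureCounts releases and add removal of ribosomal RNA with SortMeRNA. The annotation, strand setting and handling of multi-mapping reads are not given in the sources used here. Of the gene names, 13 had been turned into dates.

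In R 4.3.3, edgeR 4.0.16 was used to filter genes (filterByExpr), to scale libraries (TMM) and to run a robust quasi-likelihood F test without a block, with Benjamini-Hochberg adjustment over all 14877 tested genes. Normalized counts are counts divided by a culture's effective library size, times the mean of these sizes. For 1 gene, an exact permutation test of 3 against 3 cultures cannot give a two-sided p under 0.10. Gene length, GC content and positions came from GENCODE 44 (GRCh38), with length and GC content for 97.3% of tested genes. Alternatives were DESeq2 1.42.0 size factors and Wald test, library sizes alone, a fit without the filter, one requiring at least 10 counts in each culture, limma-voom (limma 3.58.1), the replicate block, a loess correction for GC content and length (span 0.3), and each culture left out in turn. Fits were tested on simulated data. Motifs were counted in Python 3.11.15.

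The 42 genes, the other lists and the tests were chosen with earlier results of these data known, so no test over a list was made. Every one of the 42 genes is named. Values per culture are given for genes called in any setting and for the largest change of each role, and at most 5 called genes are named in each other list.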

Additional observations from a re-analysis of the deposited data

How the results depend on the processing

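The median log2 fold change of the 42 genes was negative under all 14 alternatives (-0.14 to -0.05), and no called gene among the 42 changed sign. Leaving out 1 culture at a time, the number of the 42 genes called lower ran from 0 to 8 and called higher from 0 to 1. Over all genes it ran from 233 to 1238 lower (690 with all cultures) and from 289 to 1274 higher (804). For other mitotic genes it ran from 3 to 23 lower and 4 to 10 higher, and for G1/S genes from 3 to 11 lower and 0 to 5 higher. Each such fit has fewer cultures. The 0 lower calls came from edgeR without knockdown replicate 3, where 6 genes had an unadjusted p under 0.05. Under the GC content and length correction, 0 of the 42 genes were higher by edgeR (1 at an unadjusted p under 0.05), 16 other mitotic genes and 12 G1/S genes were lower, and over all genes 1608 were lower and 1272 higher. The cause was not tested.

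With the replicate block, 5 of the 42 genes were lower and 1 higher, with *SPC25* lost, while 4 G1/S genes were lower and 0 higher (5 at an unadjusted p under 0.05), and all genes gave 619 lower and 714 higher. The replicate numbers used are those of the sample titles. The sample descriptions number the cultures otherwise, with 1 for both control replicate 3 and knockdown replicate 1. By title number, same-numbered cultures had correlations of their deviations of -0.20, -0.11 and -0.04, and no culture correlated best with its own number. These correlations depend on each other, since each deviation is taken from its group mean. They cannot show whether the cultures were handled in pairs. The other alternatives kept 5 or 6 lower and 1 higher call among the 42 genes. With 3 cultures a group the median SE of the 42 genes was 0.11, and the called genes nearest to 0 had log2 fold changes of -0.41 and 0.42.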
